A study of Mus musculus with 6 samples.

Results

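The 40 genes described here encode the machinery of autophagy and of mitophagy, the removal of mitochondria by autophagy. They were named by a fixed list, and each was read through the brightest of its probe sets that carry its symbol alone. Of the 40, 37 had such a probe set, among 18193 genes with one in the whole series. The probe sets listed for Bnip3l, a mitophagy receptor of maturing red cells, also carry its pseudogene copy Bnip3l-ps, so that no value is given for Bnip3l. Optn and Park2 are not analysed here. All 37 genes passed the filter on dim probe sets (11959 genes did in all), and each read above background on all 6 arrays.

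The arrays measured RNA of 2 red cell precursor subsets of Balb/C mouse fetal liver, S1 (3 arrays) and S3 (3 arrays), with no further genotype or treatment named. Whole livers were dissociated, and the subsets were sorted by their surface staining for the transferrin receptor CD71, the red cell antigen Ter119 and lineage markers, S1 being the less mature. The sorts were made on 3 separate days. By one label the S1 embryos were of embryonic day 12.5 and the S3 embryos of day 13.5, and by another all were of day 13.5, so embryo age and subset cannot be told apart. A sorted subset is a mixture of cells, and fewer cells of a type cannot be told apart from less RNA per cell.

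In autophagy, the ULK1 kinase complex and a class III PI3 kinase complex start a membrane that grows with lipid from ATG9 and ATG2 proteins. A ubiquitin-like system (ATG7, ATG3 and ATG10 with the ATG12-ATG5-ATG16L1 assembly) then attaches LC3 and GABARAP proteins to that membrane. ATG4 proteases expose the end of LC3 and GABARAP that is joined to lipid and can cut them free again, and receptors tie cargo to them. Maturing red cells lose their mitochondria, and the mitophagy receptor BNIP3L and the kinase ULK1 are known for their part in that loss.

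All values are the authors' log2 signals, and differences are S3 minus S1 on the log2 scale with their SE, from limma with Benjamini-Hochberg adjustment over all 11959 genes. A gene is called at an adjusted p under 0.05. The arrays differed in how far the signal reached toward the 5' end of transcripts. The actin 5' control read below the 3' control by a log2 difference of -2.59 to -2.08 on S1 replicates 1 and 2 and S3 replicate 2, here called short arrays. On S1 replicate 3 and S3 replicates 1 and 3, the long arrays, that difference was -0.56 to -0.45. Results are therefore also given with the array class as a block and within each class. The median change of all genes was -0.33, and it was 0.13 or -0.10 after each array was centred on the median of the tested genes or of all probe sets. Of 12 erythroid markers tested, 5 rose (Hbb-bh1, Hbb-y, Alas2, Slc4a1 and Epb42), none fell in S3 and the others were not called. Among 7 megakaryocyte genes 1 rose (Vwf), and 4 did with the array class as a block (Pf4, Gp9, Ppbp and Vwf). Their summed log2 level was 6.41 to 7.51 in S1 and 8.50 to 8.60 in S3. None of 8 hepatocyte genes was called, and 2 rose with the block (Ttr and Apoa2), with a summed level of 8.16 to 8.45 in S1 and 7.98 to 9.97 in S3. Of 11 measured macrophage genes, 3 read above background on all S1 arrays, 4 on all S3 arrays and 3 on no array (Adgre1, C1qc and Mertk). Their summed level was 5.02 to 6.94 in S1 and 5.35 to 6.64 in S3, and none of the 5 tested was called in either fit. Of 5 granulocyte and monocyte genes tested 1 fell in both fits (Prtn3), and none of 2 lymphocyte or 3 endothelial genes was called in either. The part of these other cells in the results below was not tested.

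Of the 37 autophagy genes, 2 rose and 4 fell in S3, where 2.53% of all genes rose and 12.8% fell (15.3% either way), and 31 were not called. The risers were Atg4d, a protease that processes LC3 and GABARAP proteins, and Atg9a, the membrane protein of the vesicles that seed the autophagosome. The fallers were Atg10, Atg5 and Atg3, of the system that conjugates LC3 and ATG12, and Fundc1, a mitophagy receptor of the outer mitochondrial membrane. The median change of the 37 genes was 0.03, against -0.33 for all genes. With the array class as a block 11 rose and 11 fell (29.7% each), where 5.81% of all genes rose and 41.2% fell (47% either way). Under that block 3 of 4 ATG4 proteases and 4 of 5 LC3 and GABARAP genes rose, and 4 of 6 conjugation genes fell. When each array was also centred on the median of the tested genes, all 11 of these risers were still called, and of the 11 fallers only Atg5 and Atg10 were. Of the other 9 fallers, 8 kept their sign, and Bnip3 turned to 0.078 (adjusted p = 0.707). The falls under the block given below for Ulk2, Pik3c3, Atg2b, Atg7, Atg4c, Gabarapl1 and Bnip3 were thus not called on that scale.

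**Figure D1:**
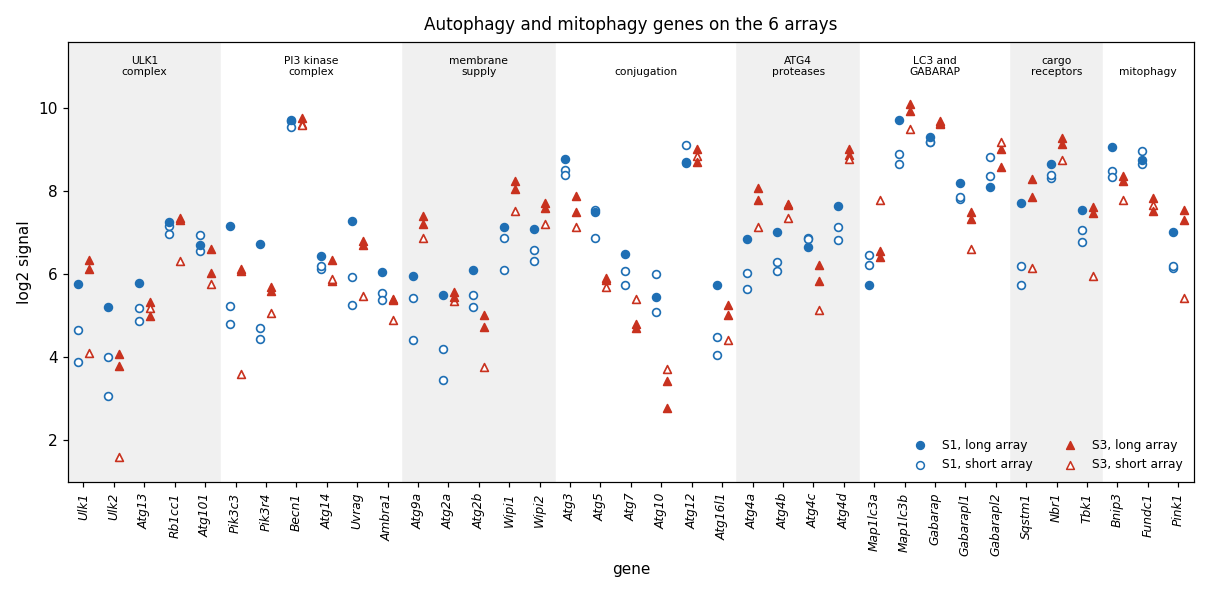
Log2 signal (vertical axis) of each of the 37 genes (horizontal axis, by role) on every array, with circles for S1, triangles for S3, filled symbols for long and open symbols for short arrays. The 3 Atg4d values of S3 lie at 8.78 to 9.01, above all S1 values, and the 3 Atg10 values of S3 at 2.78 to 3.71, below all S1 values.

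Promoter sequences are shown for the 6 genes called over all 6 arrays. They come from RefSeq (build GRCm38.p6), which held 34 promoters of 31 of the 37 genes, each with 250 bases before and 50 after a transcription start, and are written 5′ to 3′ along the gene. Capitals mark the letters searched on both strands. For GATA factors these were AGATAA and also TGATAA. For the E-box of TFEB and MYC family factors they were CACGTG. For FOXO factors they were GTAAACA. For the box of Kruppel-like factors they were CCACCC. No 2 of the marked matches overlap in these sequences.
Atg4d (chr9:21265035-21265334, plus strand): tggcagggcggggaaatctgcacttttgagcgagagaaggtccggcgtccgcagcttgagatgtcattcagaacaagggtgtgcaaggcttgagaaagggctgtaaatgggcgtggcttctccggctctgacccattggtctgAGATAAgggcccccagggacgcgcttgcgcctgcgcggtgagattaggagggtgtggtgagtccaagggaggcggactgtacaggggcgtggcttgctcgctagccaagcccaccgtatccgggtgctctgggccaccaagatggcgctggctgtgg
Atg9a (chr1:75191961-75192260, minus strand): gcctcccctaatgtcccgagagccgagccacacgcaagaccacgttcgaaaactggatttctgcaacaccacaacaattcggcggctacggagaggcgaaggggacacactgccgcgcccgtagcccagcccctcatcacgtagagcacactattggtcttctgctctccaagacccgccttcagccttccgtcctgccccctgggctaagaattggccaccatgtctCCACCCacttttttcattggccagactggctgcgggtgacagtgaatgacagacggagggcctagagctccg
Atg3 (chr16:45158579-45158878, plus strand): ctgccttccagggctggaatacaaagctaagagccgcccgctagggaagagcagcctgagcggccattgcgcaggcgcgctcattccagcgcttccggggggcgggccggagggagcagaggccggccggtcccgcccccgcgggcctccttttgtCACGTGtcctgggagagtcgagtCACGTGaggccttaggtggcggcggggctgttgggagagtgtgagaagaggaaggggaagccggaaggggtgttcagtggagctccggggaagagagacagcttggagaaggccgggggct
Atg5 (chr10:44268089-44268388, plus strand): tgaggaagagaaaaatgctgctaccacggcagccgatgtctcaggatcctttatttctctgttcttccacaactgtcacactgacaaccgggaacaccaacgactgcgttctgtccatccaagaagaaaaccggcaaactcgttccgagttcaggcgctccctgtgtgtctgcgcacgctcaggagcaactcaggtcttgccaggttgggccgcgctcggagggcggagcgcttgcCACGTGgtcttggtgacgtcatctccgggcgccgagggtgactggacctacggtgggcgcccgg
Atg10 (chr13:91223938-91224237, minus strand): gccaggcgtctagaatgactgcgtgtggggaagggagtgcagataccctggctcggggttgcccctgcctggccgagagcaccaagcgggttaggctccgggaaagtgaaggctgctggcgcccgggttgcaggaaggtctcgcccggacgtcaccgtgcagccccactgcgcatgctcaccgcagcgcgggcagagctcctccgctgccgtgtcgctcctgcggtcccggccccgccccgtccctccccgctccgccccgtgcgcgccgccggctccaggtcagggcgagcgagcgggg
Fundc1 (chrX:17571958-17572257, minus strand): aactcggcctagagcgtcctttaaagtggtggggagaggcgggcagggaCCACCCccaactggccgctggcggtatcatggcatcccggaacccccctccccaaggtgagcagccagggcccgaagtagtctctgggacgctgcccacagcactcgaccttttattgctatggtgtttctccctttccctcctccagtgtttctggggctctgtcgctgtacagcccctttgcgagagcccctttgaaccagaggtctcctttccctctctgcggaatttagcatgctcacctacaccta
The riser Atg4d held AGATAA from base -107 before the start, and Atg9a held CCACCC from base -22. Atg3 held CACGTG at 2 places, from bases -94 and -71, and Atg5 held it from base -14. Fundc1 held CCACCC from base -201, and the Atg10 window held none of the letters searched. Over the 34 promoters, CACGTG stood in 6 (17.6%), those of Atg3, Atg5, Atg7, Atg14, Bnip3 and Tbk1, against 7.15% of all 32851 promoters of this length. The GATA letters stood in 3 (8.82%), against 18.6% of all promoters. One of these was the upstream promoter of Atg4a, with 3 matches, and the other two were those of Atg4d and Pink1. CCACCC stood in 12 (35.3%, against 31.5%) and GTAAACA in none (against 3.65%). The median share of G and C bases was 52.7% over all promoters. It ran from 40% to 78% over the 34 promoters and from 59.3% to 73% over the 6 shown. The part of base content in the shares of matches was not tested. These are matches of letters, and no binding was measured.

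Among the ATG4 proteases, 1 of 4 genes rose. Atg4d read 6.84, 7.14 and 7.65 on S1 replicates 1 to 3 and 8.88, 8.78 and 9.01 on S3 replicates 1 to 3. All S3 arrays lay above all S1 arrays, and the S3 values lay close together. Its difference was 1.68 ± 0.28 (SE; 3.20-fold, adjusted p = 0.00903), or 1.30 within the long and 1.79 within the short arrays. It was called in all 21 alternative fits (adjusted p at most 0.0499). Atg4a, which prefers GABARAP proteins, read 5.64, 6.03 and 6.86 in S1 and 8.08, 7.13 and 7.78 in S3. Atg4b, the main protease of LC3, read 6.29, 6.07 and 7.01 in S1 and 7.67, 7.36 and 7.69 in S3. The groups did not overlap for either gene. Their differences of 1.49 ± 0.44 and 1.12 ± 0.35 missed the threshold (adjusted p = 0.0596 and 0.0752). Both passed with the array class as a block (1.19 ± 0.21, adjusted p = 0.00114, and 0.93 ± 0.20, adjusted p = 0.00386), and under both ways of centring and quantile normalization too. Each was called in 10 of the 21 alternatives. Neither was called when its probe sets were averaged (1.08, adjusted p = 0.191, and 1.07, adjusted p = 0.236). Of the 6 fits that left out 1 array, 2 called Atg4a and 1 called Atg4b. Atg4c, the fourth protease, had the opposite sign. It read 6.87, 6.86 and 6.66 in S1 and 6.22, 5.14 and 5.84 in S3, again with no overlap (-1.06 ± 0.39, adjusted p = 0.114, or -1.18, adjusted p = 0.00623, with the block). Atg4c thus differed in sign from the other proteases, and each of the 4 kept its own sign within both array classes.

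Of the 6 genes of the conjugation system, 3 fell, none rose and 3 were not called, and the median difference was -1.09. Atg10, the E2 enzyme that joins ATG12 to ATG5, read 5.08, 6.01 and 5.45 in S1 and 2.78, 3.71 and 3.42 in S3. Every S3 array lay at least 1 log2 unit below every S1 array (-2.21 ± 0.46, 4.62-fold, adjusted p = 0.0197). Atg5, the partner of ATG12, read 6.87, 7.56 and 7.50 in S1 and 5.91, 5.69 and 5.87 in S3 (-1.49 ± 0.34, adjusted p = 0.0272). Atg3, the E2 enzyme that joins LC3 to lipid, read 8.52, 8.39 and 8.78 in S1 and 7.89, 7.14 and 7.49 in S3 (-1.05 ± 0.28, adjusted p = 0.0423). Neither gene's groups overlapped. Atg7, the E1 enzyme that activates both ATG12 and LC3, read 5.73, 6.07 and 6.48 in S1 and 4.79, 5.41 and 4.70 in S3. It was not called (-1.13 ± 0.40, adjusted p = 0.108) and fell with the array class as a block (adjusted p = 0.0159). Atg12 itself averaged 8.83 ± 0.24 in S1 against 8.86 ± 0.16 in S3 (mean ± SD, n = 3 arrays each), a difference of 0.03 ± 0.20 (adjusted p = 0.951). Atg16l1, which places the complex on the membrane, read 4.76 ± 0.88 against 4.91 ± 0.44 (0.14 ± 0.54, adjusted p = 0.908). The signs of Atg12 and Atg16l1 turned in 4 alternatives each.

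The calls of these fallers depended on the scale. Relative to the median of all genes, Atg10, Atg5, Atg3 and Fundc1 were lower by log2 differences of -1.88, -1.15, -0.72 and -0.78, and Atg4d and Atg9a higher by 2.01 and 2.23. Centring can be done on the median of the tested genes or on that of all probe sets that are not controls. The second was run first, and the first replaced it after the counts were seen. On the median of the tested genes, no autophagy gene was called lower and 9 were called higher (5.79% and 5.93% of all genes, 11.7% either way). On the median of all probe sets, 2 were called lower, Atg5 (adjusted p = 0.0421) and Atg10 (adjusted p = 0.0276), and 6 higher. Of all genes, 972 were then lower (8.13%) and 478 higher (4%), 12.1% either way. Quantile normalization called 1 lower (Atg10) and 10 higher (9.42% and 5.84% of all genes, 15.3% either way). With the array class as a block and centring on the tested genes, 16 were higher and 2 lower (23.6% and 13.8% of all genes, 37.3% either way). The share of higher genes among all calls went from 16.5% to 50.6% and 33.0% with the 2 ways of centring, and to 38.2% with quantile normalization. The 4 fallers kept their sign under all of these, at adjusted p = 0.0848 (Atg10), 0.101 (Atg5), 0.242 (Atg3) and 0.331 (Fundc1) when centred on the tested genes. Atg4d and Atg9a were called under each of them. Single arrays mattered as well. Without S1 replicate 1, S1 replicate 2 or S3 replicate 3, 1 autophagy gene rose and 0 fell. In these fits, in that order, 136, 147 and 119 of all 11959 genes rose, and 541, 608 and 675 fell. Without S3 replicate 1, 1 autophagy gene rose and 1 fell, where 128 of all genes rose and 823 fell. Without S1 replicate 3, 5 autophagy genes rose and 2 fell (370 and 897 of all genes). Without S3 replicate 2, 3 rose and 2 fell (363 and 1273 of all genes). Over all 6 arrays 302 of all genes rose and 1533 fell. Atg4d was called in all 6 fits that left out 1 array, Fundc1 in 3, Atg9a and Atg10 in 2 each, and Atg5 and Atg3 in 0.

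**Figure D2:**
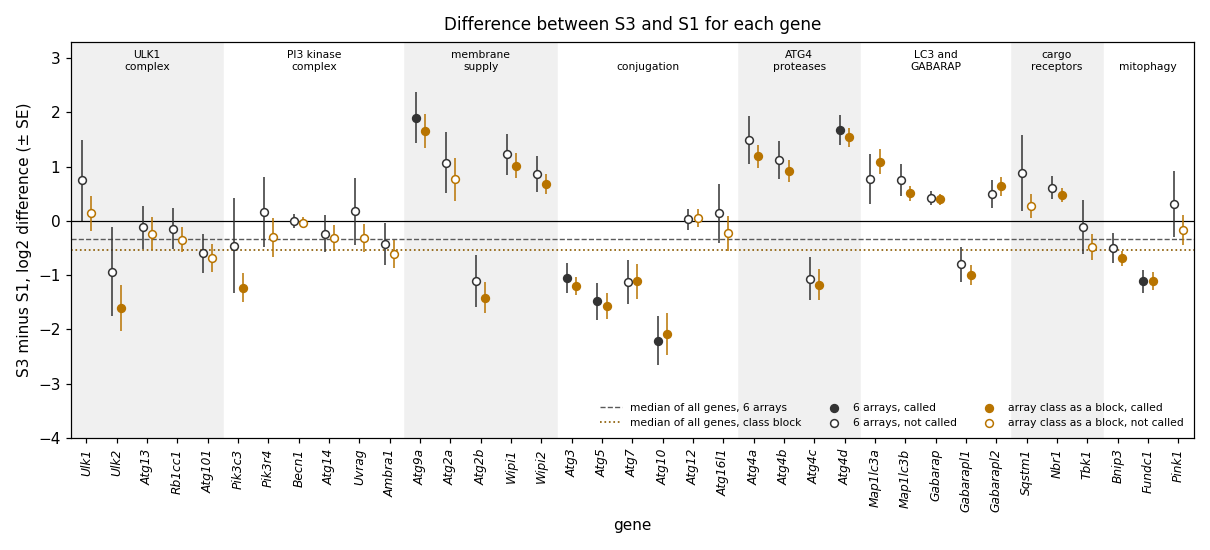
S3 minus S1 log2 difference (vertical axis) with its SE for each gene (horizontal axis, by role), over all 6 arrays (black) and with the array class as a block (brown), filled where called; dashed and dotted lines give the median of all genes in each fit. The ATG4 and LC3 columns hold mostly positive values with 1 negative gene each, and the first 4 conjugation genes are negative in both fits.

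LC3 and GABARAP proteins are small ubiquitin-like proteins that coat the growing membrane and hold cargo receptors. None of the 5 genes was called over all 6 arrays, and 3 had an unadjusted p under 0.05, as did 16 of the 37 autophagy genes and 3534 of all 11959 genes. Gabarap read 9.18, 9.19 and 9.32 in S1 and 9.70, 9.63 and 9.64 in S3, with no overlap and little spread (0.43 ± 0.13, adjusted p = 0.0606). Map1lc3b, the LC3 form most used as an autophagy marker, read 8.67, 8.90 and 9.73 in S1 and 10.10, 9.51 and 9.94 in S3. Its groups overlapped through the long S1 replicate 3 (0.75 ± 0.29, adjusted p = 0.137). Gabarapl2 averaged 8.44 ± 0.37 in S1 against 8.93 ± 0.30 in S3 (0.50 ± 0.26, adjusted p = 0.266). Map1lc3a averaged 6.15 ± 0.37 in S1 against 6.93 ± 0.75 in S3 (0.78 ± 0.46, adjusted p = 0.326), with its highest value, 7.79, on the short S3 replicate 2. With the array class as a block these 4 rose by 0.40 (Gabarap, adjusted p = 0.0100), 0.51 (Map1lc3b, adjusted p = 0.00983), 0.64 (Gabarapl2, adjusted p = 0.0120) and 1.09 (Map1lc3a, adjusted p = 0.00338). Gabarapl1 went the other way. It read 7.81, 7.86 and 8.20 in S1 and 7.51, 6.60 and 7.34 in S3 with no overlap (-0.80 ± 0.33, adjusted p = 0.151), and it fell with the block (adjusted p = 0.00119).

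Of the 5 genes of membrane supply, 1 rose. Atg9a read 5.44, 4.41 and 5.96 in S1 and 7.22, 6.87 and 7.41 in S3, with no overlap (1.90 ± 0.47, 3.73-fold, adjusted p = 0.0353). The difference was 1.35 within the long and 1.95 within the short arrays. Wipi1 and Wipi2, which bind the lipid made by the PI3 kinase, also stood apart between groups. Wipi1 read 6.86, 6.11 and 7.15 on the S1 arrays against 8.05, 7.52 and 8.26 on the S3 arrays (1.23 ± 0.38, adjusted p = 0.0688). Wipi2 read 6.32, 6.58 and 7.08 against 7.73, 7.22 and 7.60 (0.86 ± 0.33, adjusted p = 0.135). Both rose with the array class as a block (1.02, adjusted p = 0.00416, and 0.68, adjusted p = 0.0140). The lipid transfer proteins Atg2a and Atg2b, which are close relatives, had opposite signs. Atg2a averaged 4.39 ± 1.03 in S1 against 5.46 ± 0.11 in S3 (1.07 ± 0.56, adjusted p = 0.261), and the long arrays alone gave only 0.01. Atg2b read 5.50, 5.22 and 6.11 in S1 and 4.72, 3.77 and 5.02 in S3 with no overlap (-1.10 ± 0.48, adjusted p = 0.179), and it fell with the block (-1.41, adjusted p = 0.00253).

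None of the 5 genes of the ULK1 complex or the 6 of the PI3 kinase complex was called over all 6 arrays, none had an unadjusted p under 0.05, and for all of them the groups overlapped. Ulk1, the kinase that starts autophagy, read 4.66, 3.89 and 5.77 in S1 and 6.12, 4.10 and 6.35 in S3. In both subsets its long arrays read higher than its short ones, and the difference of 0.75 ± 0.74 (adjusted p = 0.589) was 0.46 within the long and -0.18 within the short arrays. Its relative Ulk2 averaged 4.09 ± 1.07 in S1 against 3.16 ± 1.35 in S3 (-0.94 ± 0.82, adjusted p = 0.533), and it fell with the block (-1.60 ± 0.43, adjusted p = 0.0103). The other members of the ULK1 complex were the scaffold Rb1cc1 (7.14 ± 0.16 in S1 and 6.99 ± 0.59 in S3), the regulatory subunit Atg13 (5.28 ± 0.46 and 5.17 ± 0.17) and its partner Atg101 (6.73 ± 0.20 and 6.13 ± 0.44). Their differences lay between -0.60 and -0.12 (adjusted p = 0.340 to 0.894). Becn1, the core of the PI3 kinase complex, read 9.70, 9.55 and 9.72 in S1 and 9.62, 9.60 and 9.76 in S3, a difference of -0.0010 ± 0.12 (adjusted p = 0.997). Pik3c3, the kinase itself, differed by -0.46 ± 0.88 (adjusted p = 0.800) and fell with the block (-1.23 ± 0.27, adjusted p = 0.00362). For the kinase's subunit Pik3r4, for Atg14 and Uvrag, which direct the complex to different membranes, and for the regulator Ambra1, differences ran from -0.43 to 0.18 (adjusted p = 0.544 to 0.914).

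Of the 3 measured mitophagy genes 1 fell, and of the 3 genes of ubiquitin receptors and their kinase none was called, with 1 at an unadjusted p under 0.05. Fundc1 read 8.65, 8.97 and 8.74 in S1 and 7.83, 7.66 and 7.52 in S3, with no overlap (-1.12 ± 0.22, 2.17-fold, adjusted p = 0.0161). The difference was -1.07 within the long and -1.15 within the short arrays. Bnip3, the relative of Bnip3l that is induced by low oxygen, read 8.49, 8.35 and 9.07 in S1 and 8.38, 7.79 and 8.25 in S3 (-0.50 ± 0.28, adjusted p = 0.295), and it fell with the block (-0.69 ± 0.14, adjusted p = 0.00244). Pink1, the kinase that marks damaged mitochondria, read 6.14, 6.19 and 7.02 in S1 and 7.54, 5.44 and 7.30 in S3. Its S3 arrays lay on both sides of S1, and the difference of 0.31 ± 0.61 (adjusted p = 0.807) was 0.40 within the long and -0.73 within the short arrays. Among receptors of ubiquitin-tagged cargo, Nbr1 read 8.31, 8.39 and 8.66 in S1 and 9.29, 8.76 and 9.14 in S3 with no overlap (0.61 ± 0.21, adjusted p = 0.102), and it rose with the block (0.48, adjusted p = 0.0110). Sqstm1, the receptor p62, read 6.20, 5.75 and 7.71 in S1 and 8.29, 6.16 and 7.86 in S3 (0.88 ± 0.70, adjusted p = 0.483). Tbk1, the kinase that acts on such receptors, differed by -0.12 ± 0.50 (adjusted p = 0.917).

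The long and the short arrays share no sample, so each gave a difference of its own. Of the 37 genes, 13 were higher and 17 lower in S3 in both classes (35.1% and 45.9%), and 7 had mixed signs. Over all genes these shares were 15.1% and 66.9%. Atg3, Atg5, Atg7, Atg10, Fundc1 and Gabarapl1 were among those lower in both. The largest gaps between the classes were those of Pik3r4 (-1.09 long, 0.48 short) and Atg2a (0.01 long, 1.52 short). In each class 1 subset has a single array, so its spread there was not measured. Over all 6 arrays the groups did not overlap for 16 of the 37 genes (43.2%), 8 higher and 8 lower, against 35.3% of all genes, 5.81% higher and 29.5% lower.

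**Figure D3:**
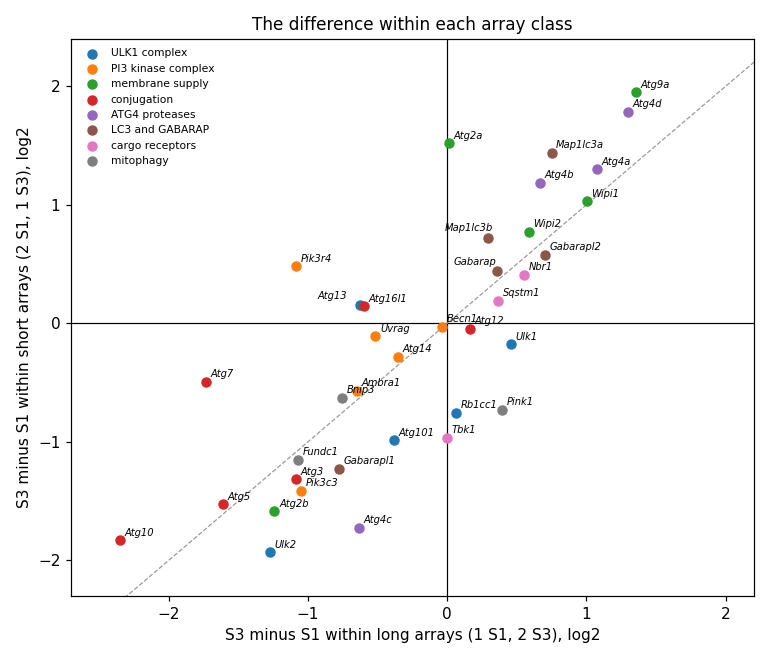
S3 minus S1 log2 difference of each gene within the long arrays (horizontal axis) and within the short arrays (vertical axis), coloured by role, with the line of equal values dashed. Atg9a and Atg4d lie at the upper right (1.35 and 1.95, 1.30 and 1.79) and Atg10 at the lower left (-2.35 and -1.83).

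Other probe sets of the same genes were compared, since probe sets can read different ends or forms of a transcript. The 37 genes had 86 probe sets, and 10 genes had only 1. Of 41 further probe sets bright enough to be tested, in 26 genes, 32 had the sign of the brightest one and 9 the opposite, and 0 of the 41 were called in a limma fit over all probe sets. That fit adjusts over more tests, and in it the brightest probe set of Atg3 was not called either (adjusted p = 0.0566). The share of all probe sets called in that fit is not given here, so the 0 of 41 cannot be set against it. The second probe set of Atg4d differed by 1.31, and those of Wipi1 by 0.32 to 2.01. For Atg4b they gave 1.40 and 0.69, and for Fundc1 -1.38 and -1.08. The further probe sets of Atg5 changed less than its brightest one, by -0.59 and -0.57, and that of Atg3 by -0.53. When all bright probe sets of a gene were averaged, Atg4d, Atg9a and Atg10 were still called (adjusted p = 0.0343, 0.0380 and 0.0238). Fundc1 then differed by -1.19, slightly more than before, and was not called (adjusted p = 0.122). Atg5 and Atg3 shrank to -0.88 and -0.79 and were not called either (adjusted p = 0.316 and 0.244). The probe sets of Ulk2 disagreed (-0.94 for the brightest, then 0.035, -0.93 and 0.0074), and their average differed by -0.46 (adjusted p = 0.650). Atg9a and Atg10 have a single probe set each.

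**Figure D4:**
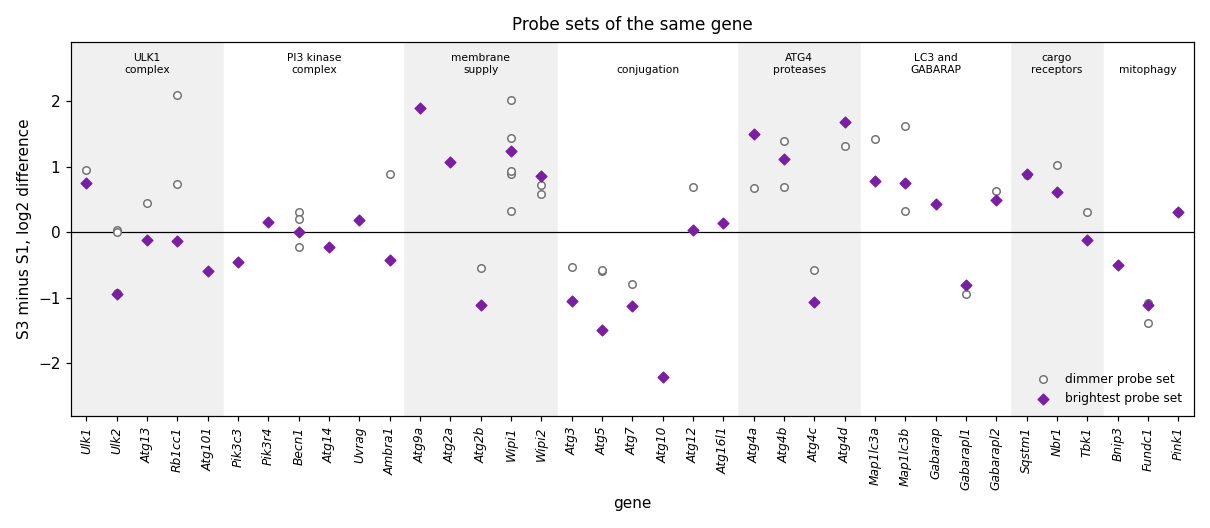
S3 minus S1 log2 difference (vertical axis) of every probe set bright enough to be tested, by gene (horizontal axis), with the brightest probe set as a filled diamond and dimmer ones as open circles. All 6 tested probe sets of Wipi1 lie above 0 and all 3 of Fundc1 below it, while those of Rb1cc1 and Becn1 lie on both sides.

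Differences between genes within the same array do not depend on how arrays were scaled. The mean of the 4 ATG4 genes minus the mean of the 6 conjugation genes was -0.08, -0.41 and -0.07 on the S1 arrays and 1.81, 1.23 and 1.67 on the S3 arrays. The LC3 and GABARAP mean minus the conjugation mean went from 1.33 ± 0.26 in S1 to 2.61 ± 0.11 in S3 (mean ± SD, n = 3 arrays each). That of membrane supply minus conjugation went from -1.12 ± 0.46 to 0.62 ± 0.30. In all 3 cases the groups of arrays stood apart. In contrast, the ULK1 complex mean minus the PI3 kinase complex mean was -0.86 ± 0.20 in S1 and -0.93 ± 0.22 in S3. All of these contrasts, and the pairs of single genes that follow, were chosen after the values were seen. Ulk1 minus Ulk2 was 0.66, 0.82 and 0.57 in S1 and 2.32, 2.49 and 2.28 in S3, a shift of 1.68, although neither gene was called. This shift rests on the brightest probe set of Ulk2 (-0.94), whose dimmer ones gave 0.035, -0.93 and 0.0074. Atg4d minus Atg5 moved from -0.10 ± 0.28 to 3.07 ± 0.09, and Atg2a minus Atg2b from -1.22 ± 0.73 to 0.95 ± 0.58. Such differences show that genes changed unequally and not which of them changed, and they were not tested.

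**Figure D5:**
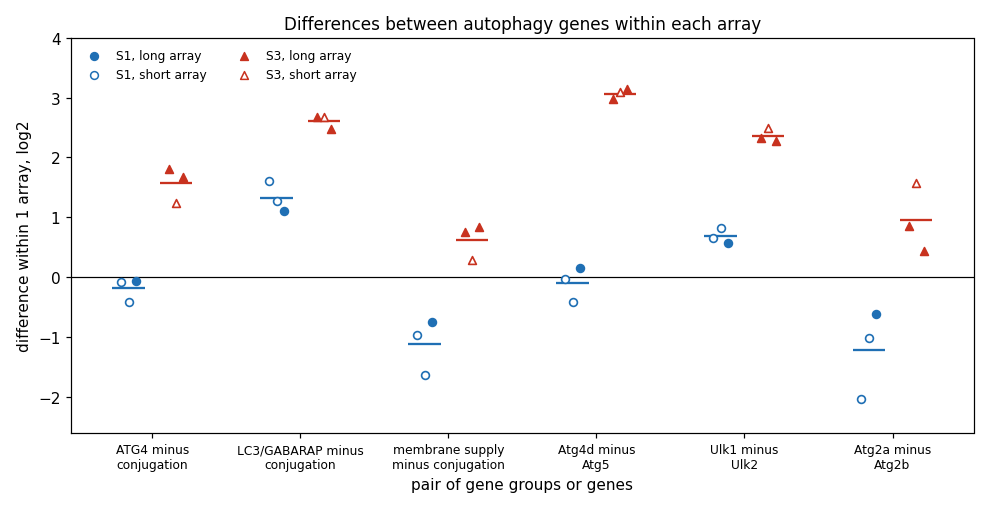
Log2 difference within each array (vertical axis) between means of gene groups or between 2 genes (horizontal axis), with circles for S1, triangles for S3, filled symbols for long and open symbols for short arrays and a bar at each mean. S1 and S3 arrays are separate in all 6 columns, and the S3 arrays of Ulk1 minus Ulk2 lie between 2.28 and 2.49.

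Other genes of the pathway were read from 6 lists, with 92 of 97 genes tested, and 5 rose and 4 fell (5.43% and 4.35%, against 2.53% and 12.8% of all genes). Of 16 further genes of autophagosome formation 2 rose, both encoding proteins that bind LC3. Trp53inp1 went from 5.10 ± 0.13 to 6.76 ± 0.37 (1.66 ± 0.36, adjusted p = 0.0233), and Trp53inp2 went from 2.69 ± 0.53 to 4.50 ± 0.26 (1.81 ± 0.45, adjusted p = 0.0365). Of 15 other selective receptors 1 rose and 1 fell. Ncoa4, the receptor that carries ferritin to autophagosomes, read 9.28, 9.05 and 9.58 in S1 and 10.13, 9.82 and 10.14 in S3 (0.73 ± 0.18, adjusted p = 0.0324). Nipsnap1, a mitochondrial protein that can attract mitophagy receptors, fell by 1.48 ± 0.37 on the log2 scale (adjusted p = 0.0360). It kept its sign in all 21 alternatives and was called in 10. The call was lost with centring on the tested genes (-1.01, adjusted p = 0.148) and with quantile normalization (-1.13, adjusted p = 0.101). It was also lost when its probe sets were averaged (-1.40, adjusted p = 0.0956).

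Of 17 genes of mitochondrial shape and mitophagy control, 1 rose and 2 fell. Hk2, a hexokinase of the outer mitochondrial membrane, read 8.07, 7.20 and 8.76 in S1 and 3.76, 3.56 and 4.01 in S3 (-4.24 ± 0.47, adjusted p = 0.00315). Opa1, which fuses inner mitochondrial membranes, went from 9.09 ± 0.20 to 7.63 ± 0.35 (-1.46 ± 0.25, adjusted p = 0.0105). It was called in 18 of 21 alternatives. Centring on the tested genes (-0.99, adjusted p = 0.0612) and averaging its probe sets (-0.95, adjusted p = 0.316) lost the call. Fis1, a fission factor, went from 9.32 ± 0.46 to 10.21 ± 0.10 (0.89 ± 0.23, adjusted p = 0.0378). With the array class as a block 12 of these 17 fell and 1 rose (70.6% and 5.88%, against 41.2% and 5.81% of all genes). With that block and centring on the tested genes, 4 fell and 3 rose (23.5% and 17.6%, against 13.8% and 23.6% of all genes). Of 10 transcription factors that act on autophagy genes, Foxo4 rose from 8.26 ± 0.31 to 9.34 ± 0.18 (1.08 ± 0.22, adjusted p = 0.0185). Hif1a, the oxygen-regulated factor, fell from 9.47 ± 0.18 to 8.67 ± 0.08 (-0.80 ± 0.17, adjusted p = 0.0197). The Hif1a call was lost with centring on the tested genes (-0.34, adjusted p = 0.635), with the block and that centring (-0.040, adjusted p = 0.859) and averaged over its probe sets (-0.20, adjusted p = 0.906). Of these 9 called pathway genes, Hk2 was called in all 21 alternatives and the other 8 in 10 to 18 of them. None of 14 genes of fusion with the lysosome was called by limma, and 2 had an unadjusted p under 0.05. The nearest were the late endosome GTPase Rab7 (-0.31 ± 0.10, adjusted p = 0.0790) and Tecpr2 (1.12 ± 0.45, adjusted p = 0.144). With the block Rab7 was called lower (-0.34, adjusted p = 0.0122). With the block and centring on the tested genes it was called higher (0.42, adjusted p = 0.00808). Over all 6 arrays none of 20 genes of mTORC1 and AMPK, the kinases that restrain and activate ULK1, was called, and 1 had an unadjusted p under 0.05. Sesn2 and Ddit4, both inhibitors of mTORC1, differed by -0.93 ± 0.39 and -1.08 ± 0.56 (adjusted p = 0.167 and 0.255). With the block 1 of the 14 fusion genes rose and 5 fell (7.14% and 35.7%). Of the 20 kinase genes 0 rose and 6 fell (0% and 30%), where 5.81% of all genes rose and 41.2% fell.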

How the data were processed

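RNA of 3 S1 and 3 S3 samples was amplified and hybridised to Affymetrix mouse arrays, 1 array each, per the labels. As the series' design text has it, the authors scaled MAS5 signals to probe sets of 18S rRNA, beta-actin and Gapdh. MAS5 is also named in the submitters' processing notes, with no version. The deposited values include negative numbers and were taken as log2 signals, since no log base is stated, and were used without further change.

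Of 45101 probe sets, 34945 besides the controls carried 1 symbol. The brightest per gene by mean over the 6 arrays was kept where that mean was above the 40th percentile of the probe sets that are not controls (log2 1.12), which left 11959 genes. Background was the 95th percentile per array of 27 bacterial control probe sets (log2 1.01 to 1.74). The model, S3 minus S1, came from limma 3.58.1 in R 4.3.3 (lmFit, then eBayes with its trend on intensity), with two-sided p-values and Benjamini-Hochberg adjustment. The number of arrays limits the precision.

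Alternatives were median centring, quantile normalization, 2 other filters, an added constant, 2 other variance trends, the mean over probe sets, replicate number or array class (cut at -1.5 in the actin difference) as blocks, each class alone, and leaving out each array. Centring was first done on the median of all probe sets that are not controls. After its counts were seen, and seen to differ from those of an earlier analysis of these data, it was redefined on the median of the tested genes, and both are reported, the first definition as an alternative added after seeing the data. The named genes were all 37 members and, of each further list, up to 4 called genes with the smallest p, or the 2 smallest where none was called. The members, lists and other alternatives were chosen with earlier results of these data known. Protein sequences were not used here.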

Additional observations from a re-analysis of the deposited data

How the results depend on the processing

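Under 21 alternative fits, 22 of the 37 genes kept their sign throughout, among them the 6 called ones, and 15 changed sign at least once. Counts are given as higher and lower autophagy genes, then the further pathway genes, then all genes. They were 2 and 4, 5 and 4, and 302 and 1533 over all 6 arrays. With centring on the median of the tested genes they were 9 and 0, 11 and 1, and 709 and 693. With centring on the median of all probe sets, the definition run first and kept here as an alternative chosen after seeing the data, they were 6 and 2, 5 and 2, and 478 and 972. With quantile normalization they were 10 and 1, 10 and 2, and 698 and 1127 lower genes. The array class as a block gave 11 and 11, 8 and 38, and 695 and 4922, with centring on the tested genes 16 and 2, 34 and 6, and 2818 and 1647, and with centring on all probe sets 12 and 3, 8 and 10, and 1024 and 2013. Long arrays alone gave 7 and 11, 6 and 27, and 617 and 4151, and short arrays alone 5 and 7, 2 and 15, and 337 and 2601. In both, 1 subset has a lone array, which was assumed to vary like the other subset, so these counts carry little weight. The mean over probe sets gave 2 and 1, 2 and 1, and 241 and 991. A 60th percentile filter gave 3 and 4, and 7 lower pathway genes, with 314 and 1493 of the 8720 genes then tested. No intensity trend called 2 pathway genes higher, with 230 and 1251 of all genes. All other counts under no filter, the added constant and the robust trend stayed within 1.5 times. Leaving out 1 array gave 1 to 5 and 0 to 2 autophagy genes, 0 to 4 and 1 to 3 pathway genes, and 119 to 370 and 541 to 1273 of all genes.

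Signs turned as follows, with log2 differences. With centring on the tested genes they were Atg13 0.35, Rb1cc1 0.32, Pik3c3 0.0087, Becn1 0.46, Atg14 0.23, Ambra1 0.036, Tbk1 0.35 and Rab7 0.15. With centring on all probe sets they were Atg13 0.12, Rb1cc1 0.089, Becn1 0.23 and Tbk1 0.11, and with the array class as a block as well Atg13 0.21, Rb1cc1 0.10, Becn1 0.42, Atg14 0.13 and Rab7 0.10. With quantile normalization they were Atg13 0.23, Rb1cc1 0.21, Becn1 0.20, Atg14 0.11 and Tbk1 0.25. Means over probe sets gave Atg13 0.16, Rb1cc1 0.89, Becn1 0.072, Ambra1 0.23 and Tbk1 0.092. The array class as a block gave Pik3r4 -0.30, Uvrag -0.31, Atg16l1 -0.23 and Pink1 -0.17. That block with centring on the tested genes gave Atg13 0.53, Rb1cc1 0.42, Atg101 0.083, Atg14 0.45, Ambra1 0.16, Tbk1 0.28 and Bnip3 0.078. It also gave Becn1 0.74 (adjusted p = 0.000436) and Rab7 0.42 (adjusted p = 0.00808), both called higher. Long arrays alone gave Rb1cc1 0.064, Pik3r4 -1.09, Uvrag -0.52 and Atg16l1 -0.60, and short arrays alone gave Ulk1 -0.18, Atg13 0.15, Uvrag -0.11, Atg12 -0.048 and Pink1 -0.73. Leaving out 1 array gave ranges that cross 0 for Atg13 (-0.32 to 0.13), Rb1cc1 (-0.32 to 0.20), Pik3c3 (-0.92 to 0.38), Pik3r4 (-0.27 to 0.87), Becn1 (-0.054 to 0.030), Uvrag (-0.27 to 0.74), Atg12 (-0.056 to 0.17), Atg16l1 (-0.21 to 0.63), Tbk1 (-0.42 to 0.41) and Pink1 (-0.084 to 0.97). The cause was not tested.

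No label says that a replicate number marks a sorting day shared by both subsets. Deviations from the subset means correlated at -0.19, 0.36 and 0.43 between arrays of the same number and at -0.58 to 0.40 between the others, so pairing was neither shown nor excluded. With the replicate block 4 autophagy genes rose (Wipi1 and Atg4b besides Atg9a and Atg4d) and 4 fell, 5 and 6 pathway genes did, and 412 and 1897 of all genes.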
